A study of Homo sapiens with 18 samples.

Results

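The genes described are the core human genes that write and read methylation of histone H3 at lysine 9 (H3K9): the methyltransferases SUV39H1, SUV39H2, SETDB1, SETDB2, EHMT1 and EHMT2, the corepressor TRIM28, and the heterochromatin protein 1 (HP1) genes CBX5, CBX1 and CBX3. They were taken by symbol from a deposited expression table, and all 10 were found among its 23571 named genes. The values are FPKM (fragments scaled to transcript length and to the number of mapped fragments), so they are per length and can be set side by side between genes.

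H3K9 methylation is the mark of silent, compact chromatin. SUV39H1, SUV39H2 and SETDB1 write its trimethylated form, the first pair mostly at repeats near centromeres and SETDB1 at retroelements and other sites to which TRIM28 brings it, while EHMT1 (GLP) and EHMT2 (G9a) work as a heterodimer that writes the mono- and dimethylated forms in gene-rich chromatin. HP1 proteins bind the methylated lysine through a chromodomain, and the pathway is coupled to DNA methylation, because UHRF1, which brings DNMT1 to replicated DNA, reads H3K9 methylation as well.

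The cells were SW48, an established human colon adenocarcinoma line, sequenced as 18 libraries of total RNA after removal of ribosomal RNA. There were 6 groups of 3 libraries: control siRNA or siRNA against CHD4 (siCHD4), the ATPase of the NuRD chromatin remodelling complex, each given alone, with siRNA against the maintenance DNA methyltransferase DNMT1 (siDNMT1), or with 50 nM decitabine, a cytidine analogue that traps DNA methyltransferases. The single siRNA was given on days 1, 3 and 6, with RNA on day 8. In the siDNMT1 groups siDNMT1 was given on days 1, 3 and 5 and the control or CHD4 siRNA on days 7 and 8, with RNA on day 11. In the decitabine groups the drug was given on days 1, 2 and 3 and the siRNA on days 1 and 2, with RNA on day 5. Groups that share a background share a schedule, but any comparison with control siRNA alone also changes the schedule, and there treatment and schedule cannot be told apart. The same holds for a difference between siCHD4 effects in different backgrounds, since the siCHD4 schedule changed with the background. All 6 groups are 1 cell line. The labels do not say if libraries of 1 group are separate cultures, so every p-value rests on a spread between libraries that could be technical.

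The labels held where they could be checked. Mean CHD4 was 31.3 FPKM with siCHD4 and 62.8 with control siRNA, and 28.4 against 68.2 with siDNMT1. With decitabine it was 54.9 against 76.2, a smaller difference that did not pass the test used throughout (limma on log2(FPKM + 1) over the 12809 genes that reached 1 FPKM in 3 or more libraries, Benjamini-Hochberg adjusted p = 0.0752, n = 3 libraries a group, call at an adjusted p under 0.05). The siCHD4 effects with decitabine thus went with a weaker fall of CHD4 RNA than elsewhere, and its part in them was not tested. DNMT1 was 12.3 FPKM with control siRNA plus siDNMT1 and 44.7 without siDNMT1. Epithelial markers were present in every library, for example EPCAM at 131 to 279 FPKM and the intestinal factor CDX2 at 31.1 to 71.0, whereas the colon markers LGALS4 and CDX1 were at 0.452 FPKM or lower. The summed level of 11 epithelial and colon markers was 2048 to 2167 FPKM with control siRNA, 1227 to 1398 with siCHD4 and 1094 to 1141 with siCHD4 plus siDNMT1. KRT8 and KRT18, with medians of 607 and 674 FPKM over the 18 libraries, weigh most in that sum. Of the 9 tested genes of the list, siCHD4 alone called 2 higher and 2 lower, where 19.3% of all tested genes were called. Against control siRNA, siCHD4 plus siDNMT1 called 5 higher and 2 lower, where 59.1% were called, with a list median of 0.46 log2 units. The summed level of 6 fibroblast markers was 0.121 to 0.490 FPKM in the control siRNA libraries and 12.9 to 15.0 with siCHD4 plus siDNMT1, with the defining collagen COL3A1 at 0 in all 18 libraries, and that of 5 blood markers went from between 0 and 0.0908 to between 3.52 and 4.25. Replicate 0 of control siRNA plus decitabine was the shallowest library, 1 fragment there being worth 2.04 log2 units more FPKM than in the first control library, against -0.74 to 0.16 in the other libraries, and it holds the lowest value of CBX3, CBX1, SUV39H2 and SETDB2. Replicates 2 of control siRNA and of siCHD4 deviated from their group means in opposite directions (r = -0.31 across genes). Across genes, the deviation of control siRNA replicate 2 from its group mean correlated with those of siCHD4 replicates 0 and 1 (r = 0.173 and 0.229). For siCHD4 replicate 2 the values were 0.197 with control siRNA replicate 0 and 0.196 with replicate 1. Each thus shared part of its deviation with the other group's remaining libraries, while CHD4 itself went with their labels (68.2 and 23.2 FPKM). Deviations cancel out within a group, so the positive values partly restate the negative one. Values of that size occurred elsewhere too, such as 0.239 between siCHD4 replicate 1 and control siRNA plus decitabine replicate 0. With replicates 2 of both groups left out siCHD4 alone again called no member by limma, and 2170 tested genes in place of 2471.

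In control siRNA cells CBX3, TRIM28 and CBX1 stood above all 6 methyltransferases, whereas the third HP1 gene, CBX5, lay among them. CBX3 was the most abundant gene at 272 ± 34.4 FPKM (SD, n = 3 in each case), followed by TRIM28 at 130 ± 24.2 and CBX1 at 68.4 ± 3.13. EHMT2 led the methyltransferases at 31.3 ± 2.26, and CBX5 (20.2 ± 1.75) and SETDB1 (19.6 ± 1.48) came next with ranges that overlapped. SUV39H2 followed at 15.7 ± 1.20, EHMT1 at 14.1 ± 0.470, SUV39H1 at 9.78 ± 0.755 and SETDB2, the least abundant, at 3.85 ± 0.256. CBX5 and SETDB1 were the only neighbours in this order whose control libraries overlapped.

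**Figure D1:**
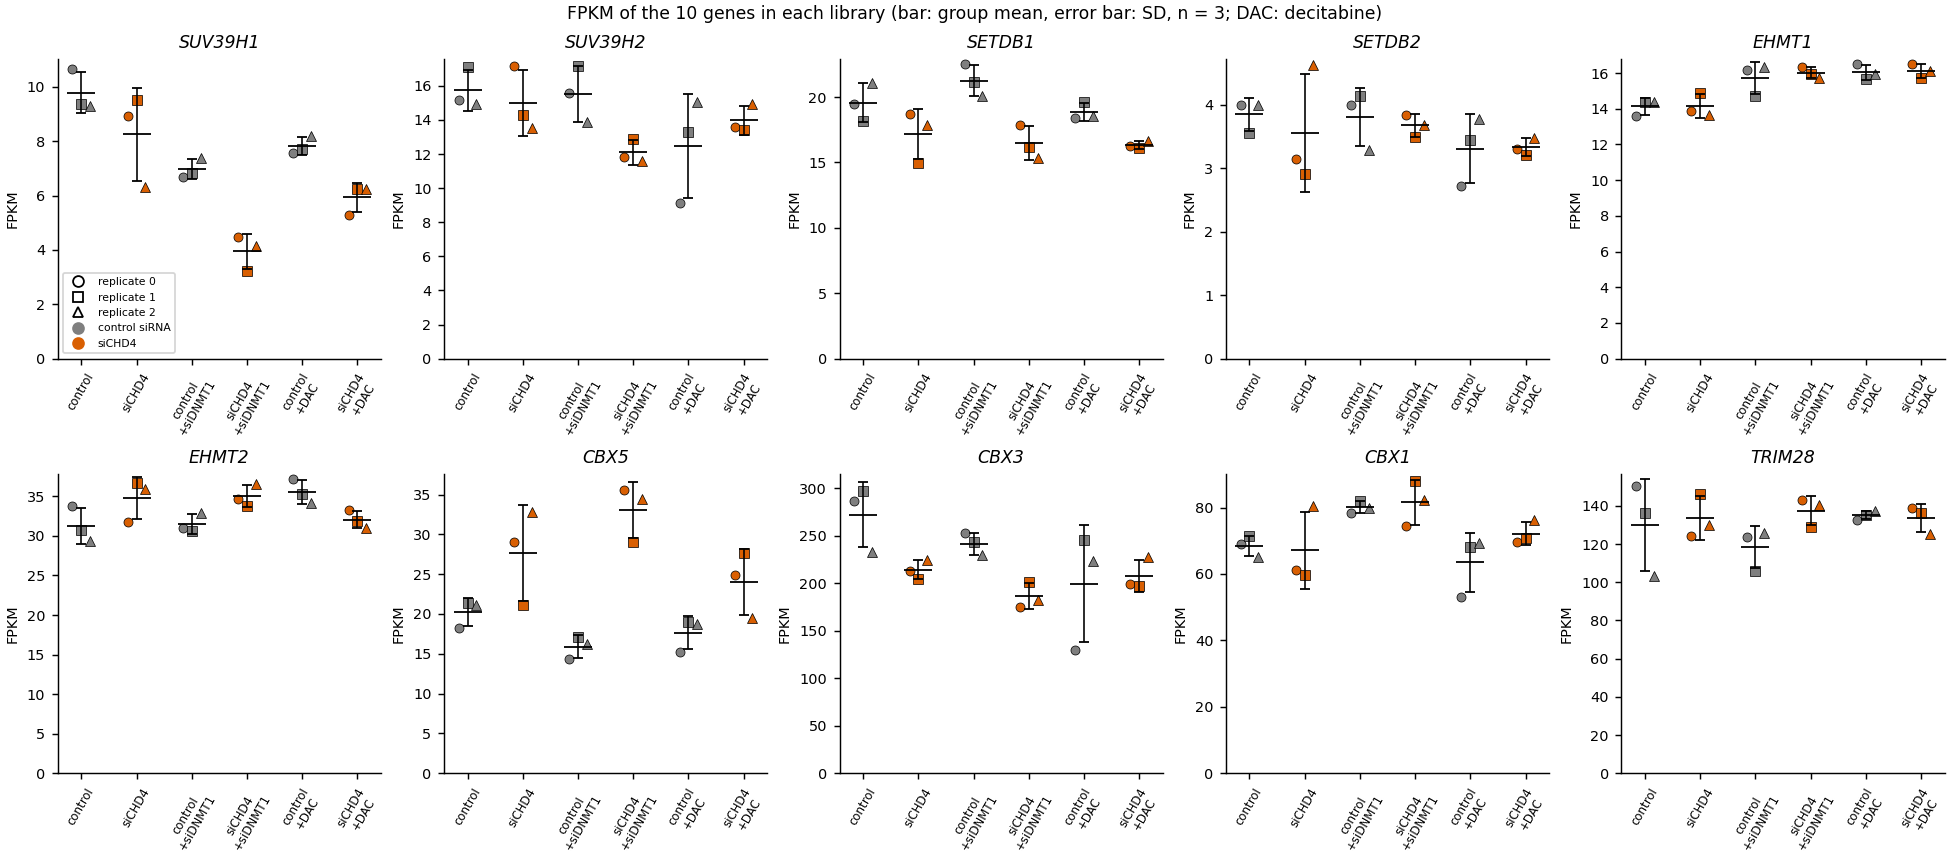
FPKM (y axis, linear, from 0) of each of the 10 genes in the 18 libraries, grouped on the x axis by treatment. Points are libraries (shape: replicate number), the long bar is the group mean and the error bar the SD (n = 3). SUV39H1 is lowest with siCHD4 plus siDNMT1 (3.24 to 4.47 FPKM), where CBX5 is highest (29.0 to 35.6 FPKM).

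SUV39H1 and CBX5 varied most between the 6 groups. SUV39H1 had a limma F of 19.0, exceeded by 9.59% of all tested genes, and CBX5 an F of 12.0, exceeded by 19.0%. SETDB1 came next at 5.46, with 45.3% of tested genes above it, and the other members lay lower still, down to TRIM28 (0.889, 94.7% above) and SETDB2 (0.680, 97.0% above). For 7 of the 10 genes more than 50% of the tested genes had the larger F.

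SUV39H1, a trimethylating enzyme of constitutive heterochromatin, spans chrX:48553945-48567407 on the plus strand (GRCh37, GENCODE). RefSeq gives it 2 starts, and the 250 bases before each are shown because they differ in CpG content, CpG being the substrate of DNMT1. CpG dinucleotides are in capitals. The upstream window, chrX:48553695-48553944, holds 5 CpGs, and the downstream one, chrX:48554875-48555124, which lies within the span of the gene, holds 35. Over all 35116 RefSeq promoter windows of this length the median was 11 CpGs (quartiles 3 and 23), and 94.2% held fewer than the downstream window. The windows of EHMT1 and SUV39H2 held more still, 43 and 38 CpGs. Gene-level FPKM does not separate the 2 starts of SUV39H1, and no DNA methylation was measured in these files.

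SUV39H1 upstream start: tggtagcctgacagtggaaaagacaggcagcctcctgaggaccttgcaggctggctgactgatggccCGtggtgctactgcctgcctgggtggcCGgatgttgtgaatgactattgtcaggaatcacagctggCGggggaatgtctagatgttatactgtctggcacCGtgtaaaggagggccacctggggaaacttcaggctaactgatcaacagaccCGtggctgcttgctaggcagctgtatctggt

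SUV39H1 downstream start: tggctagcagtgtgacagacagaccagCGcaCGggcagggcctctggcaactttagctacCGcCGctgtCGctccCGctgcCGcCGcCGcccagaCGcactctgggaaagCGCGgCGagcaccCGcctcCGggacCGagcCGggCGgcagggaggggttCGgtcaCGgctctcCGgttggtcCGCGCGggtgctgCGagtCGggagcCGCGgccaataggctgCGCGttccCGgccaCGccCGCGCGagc

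SUV39H1 fell when CHD4 was depleted together with DNMT1. Its level was 10.7, 9.39 and 9.31 FPKM in the 3 control siRNA libraries and 6.69, 6.82 and 7.38 with control siRNA plus siDNMT1. With siCHD4 plus siDNMT1 it was 4.47, 3.24 and 4.13 FPKM. All 3 libraries of the double depletion lay below all other 15 libraries of the study. Against control siRNA plus siDNMT1 the log2 difference was -0.69 ± 0.13 (SE; limma, adjusted p = 0.000475), and against control siRNA alone -1.13 ± 0.13 (adjusted p = 3.27e-06), the mean of 3.95 FPKM being 40.3% of the control mean of 9.78.

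The same gene with the other treatments gave smaller values on the same side. With siCHD4 alone SUV39H1 was 8.91, 9.53 and 6.31 FPKM, which overlapped the controls; the log2 difference was -0.24 (95% interval -0.51 to 0.04, limma adjusted p = 0.207). With control siRNA plus decitabine it was 7.58, 7.73 and 8.20 FPKM, and with siCHD4 plus decitabine 5.30, 6.24 and 6.26. The siCHD4 libraries with decitabine lay wholly below their own controls, but the difference of -0.35 was not called (95% interval -0.62 to -0.08, limma adjusted p = 0.142). Against control siRNA alone, siCHD4 plus decitabine was lower by a log2 difference of -0.64 ± 0.13 (limma adjusted p = 0.00144), at 60.6% of the control mean.

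In order of mean, SUV39H1 stood at 9.78 FPKM with control siRNA, 8.25 with siCHD4, 7.84 with control siRNA plus decitabine, 6.96 with control siRNA plus siDNMT1, 5.93 with siCHD4 plus decitabine and 3.95 with both siRNAs. The libraries of the first 3 groups overlapped from one to the next, and each later group was separate from the one before. siDNMT1 against control siRNA gave -0.44 ± 0.13 (limma adjusted p = 0.0379), the only member called in that comparison, in which 11.3% of tested genes were called. That call was lost when any 1 of the 6 libraries was left out (adjusted p 0.0653 to 0.142). The siCHD4 effect on SUV39H1 with siDNMT1 minus that without was -0.46 (95% interval -0.84 to -0.07), which was not called in the test of the difference itself (limma adjusted p = 0.175), and which was called without siCHD4 replicate 2 (adjusted p = 0.00921) and without replicates 2 of both groups (adjusted p = 0.0185).

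Its paralog SUV39H2 was 15.1, 17.1 and 15.0 FPKM in control siRNA and 11.8, 12.9 and 11.6 with siCHD4 plus siDNMT1, so the groups did not overlap. The log2 difference of -0.35 ± 0.14 was called (limma adjusted p = 0.0416) but not in 9 of 15 alternatives (adjusted p up to 0.133). Against control siRNA plus siDNMT1 (15.6, 17.2 and 13.9 FPKM) the difference of -0.33 was not called (95% interval -0.63 to -0.03, limma adjusted p = 0.0611). The ratio of SUV39H1 to SUV39H2 went from 0.625 ± 0.0775 in control siRNA to 0.329 ± 0.0681 in the double depletion (n = 3), and the libraries of the 2 groups did not overlap in it. The lowest SUV39H2 of all, 9.12 FPKM, was in the shallow decitabine library.

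SETDB1, the trimethylating enzyme that works with TRIM28 and ATF7IP, fell modestly with siCHD4 in the siDNMT1 background. It was 22.5, 21.1 and 20.1 FPKM with control siRNA plus siDNMT1 and 17.9, 16.2 and 15.4 with siCHD4 plus siDNMT1. The groups did not overlap and the log2 difference was -0.35 ± 0.09 (limma adjusted p = 0.00422). In the other backgrounds the siCHD4 libraries had the lower mean as well, 17.2 against 19.6 FPKM alone (log2 difference -0.18, 95% interval -0.37 to 0.00) and 16.3 against 18.9 with decitabine (-0.20, 95% interval -0.38 to -0.01), neither of which was called (limma adjusted p = 0.157 and 0.231). Against control siRNA alone both siCHD4 combinations were called lower, at -0.24 (limma adjusted p = 0.0306) and -0.25 (adjusted p = 0.0407), and each of those calls was lost in at least 7 of 15 alternatives. SETDB1 overlaps CERS2 on the other strand, and whether the counting used strand is not given in the sources used here.

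SETDB2, a relative of SETDB1, stayed between 2.71 and 4.62 FPKM in all 18 libraries and was called in none of the 10 comparisons by the test used throughout. It was called lower in single alternatives of some comparisons, such as after quantile normalization for siCHD4 plus siDNMT1 against control siRNA (limma adjusted p = 0.0160). Its widest spread was within siCHD4 (3.14, 2.90 and 4.62 FPKM), wider than the distance between any 2 group means. Its head-to-head neighbour CAB39L, which starts 210 bases away, was called lower with siCHD4 alone (log2 difference -0.41, limma adjusted p = 0.0275), where SETDB2 was at -0.11 (95% interval -0.38 to 0.17).

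The G9a and GLP pair changed little. EHMT1 was 13.6, 14.4 and 14.4 FPKM in control siRNA, 16.3, 16.0 and 15.7 with siCHD4 plus siDNMT1, and 16.5, 15.7 and 16.1 with siCHD4 plus decitabine. Both combinations lay wholly above control siRNA and were called higher, by log2 0.17 ± 0.07 (limma adjusted p = 0.0351) and 0.18 ± 0.07 (adjusted p = 0.0443), small differences whose calls were lost in 6 and 9 of 15 alternatives. Its control groups with siDNMT1 (14.7 to 16.3 FPKM) and decitabine (15.7 to 16.5) also lay above control siRNA, and siCHD4 against control siRNA within a background differed by log2 0.00 to 0.02. EHMT2 lay between 29.3 and 37.2 FPKM in all libraries and was not called in any comparison by the test used throughout. For siCHD4 plus siDNMT1 it was called higher in 3 of 14 alternatives against control siRNA plus siDNMT1, and in 4 of 15 against control siRNA. With siDNMT1 the siCHD4 libraries of EHMT2 lay above their controls (33.8 to 36.6 against 30.7 to 32.9 FPKM), with decitabine they lay below (31.0 to 33.2 against 34.1 to 37.2), and the difference between the 2 effects, 0.29 ± 0.11, was not called (95% interval 0.06 to 0.52, limma adjusted p = 0.0900). The EHMT2 to EHMT1 ratio stayed between 1.92 and 2.63.

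Summed over the 6 methyltransferases, FPKM was 94.3 ± 1.96 in control siRNA, 87.2 ± 1.77 with siCHD4 plus siDNMT1 and 87.7 ± 1.06 with siCHD4 plus decitabine (SD, n = 3), while the other 3 groups had means of 92.9 to 94.8. SUV39H1 made up 10.4% of that sum in control siRNA and 4.52% in the double depletion, and EHMT2 33.1% and 40.2%.

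TRIM28, the RING-domain corepressor that KRAB zinc finger proteins bring to DNA, was not called in any comparison by the test used throughout. It ranged from 103 to 151 FPKM, with both extremes in control siRNA (151, 136 and 103). The 3 libraries with siCHD4 plus siDNMT1 (143, 129 and 140) lay above those with control siRNA plus siDNMT1 (124, 106 and 126), a log2 difference of 0.22 that was not called (95% interval -0.03 to 0.47, limma adjusted p = 0.140). It was called in 2 of 14 alternatives, quantile normalization (adjusted p = 0.0142) and library weights (adjusted p = 0.00922). Single alternatives called TRIM28 in some other comparisons as well.

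CBX5 encodes HP1 alpha, the isoform most closely tied to centromeric heterochromatin. The gene lies at chr12:54624726-54673917 on the minus strand (GRCh37, GENCODE) and starts 60 bases from HNRNPA1, which runs the other way. The 59 bases between the 2 genes are shown, on the strand of CBX5 and from RefSeq, because both genes start at their ends. This stretch, chr12:54673918-54673976, holds 6 CpGs (capitals), and the 250 bases before the RefSeq start of CBX5 beside it hold 17. RefSeq gives CBX5 other starts inside the gene, whose windows hold 3 and 4 CpGs.

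CBX5 to HNRNPA1: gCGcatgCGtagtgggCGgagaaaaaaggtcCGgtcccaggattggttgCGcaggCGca

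CBX5 rose with siCHD4 in the siDNMT1 background, where SUV39H1 fell. It was 14.3, 17.1 and 16.2 FPKM with control siRNA plus siDNMT1 and 35.6, 29.0 and 34.4 with siCHD4 plus siDNMT1. Every library of the double depletion was above every library of its control, the log2 difference was 1.01 ± 0.16 (limma adjusted p = 0.000121), and the mean went from 15.9 to 33.0 FPKM. Against control siRNA alone (18.2, 21.4 and 21.1 FPKM) the difference was 0.68 ± 0.16 (limma adjusted p = 0.00162).

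In the other backgrounds CBX5 stood higher with siCHD4 in most libraries without passing the test. With siCHD4 alone it was 29.0, 21.1 and 32.8 FPKM, of which replicate 1 fell among the controls, and the difference of 0.41 was not called (95% interval 0.08 to 0.74, limma adjusted p = 0.0732, 0.0127 without that replicate, and 0.246 without replicates 2 of both groups). With decitabine it was 24.9, 27.7 and 19.5 FPKM against 15.3, 19.0 and 18.7, groups that did not overlap, again with 0.41 (95% interval 0.08 to 0.74, limma adjusted p = 0.156). The siCHD4 effect with siDNMT1 was larger than alone by 0.59 (95% interval 0.13 to 1.06) and larger than with decitabine by 0.59 (95% interval 0.13 to 1.06), and neither difference was called (limma adjusted p = 0.150 and 0.0940). The first was called without siCHD4 replicate 2 (adjusted p = 0.0292). For the second, the depletion of CHD4 differed too, at 54.9 against 76.2 FPKM with decitabine and 28.4 against 68.2 with siDNMT1. The part of that difference was not tested. Without siCHD4 the means with siDNMT1 and with decitabine lay on the other side, and neither difference was called. With siDNMT1 CBX5 was wholly below control siRNA, by a log2 difference of -0.33 (95% interval -0.66 to 0.00, limma adjusted p = 0.199). With decitabine its libraries overlapped control siRNA, at -0.19 (95% interval -0.52 to 0.14, limma adjusted p = 0.430).

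HNRNPA1, the splicing factor gene on the other side of the shared stretch, was called lower where CBX5 was called higher. Its mean was 384 FPKM with siCHD4 plus siDNMT1, 511 with control siRNA plus siDNMT1 and 551 with control siRNA, log2 differences of -0.41 (limma adjusted p = 0.00947) and -0.52 (adjusted p = 0.00156). The pair thus moved in opposite directions in these comparisons, in which 49.4% and 59.1% of all tested genes were called. With control siRNA plus siDNMT1 both means were below control siRNA, CBX5 at 15.9 against 20.2 FPKM and HNRNPA1 at 511 against 551.

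CBX3 encodes HP1 gamma, the isoform also found over transcribed genes. It was 287, 297 and 233 FPKM in control siRNA, 213, 204 and 225 with siCHD4, and 175, 201 and 183 with siCHD4 plus siDNMT1. Both siCHD4 groups lay wholly below control siRNA. With siCHD4 alone the log2 difference was -0.34 (95% interval -0.71 to 0.04, limma adjusted p = 0.190, not called), and with siCHD4 plus siDNMT1 it was -0.54 ± 0.17 (adjusted p = 0.0154), a call lost after quantile normalization (adjusted p = 0.494) and without 3 of the 6 libraries in turn (control siRNA replicate 0 or 1 and siCHD4 plus siDNMT1 replicate 0, adjusted p 0.0512 to 0.0585). Within the siDNMT1 background (252, 243 and 229 FPKM in the control) the difference of -0.37 was not called (95% interval -0.75 to 0.00, adjusted p = 0.0881).

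With decitabine CBX3 was 130, 245 and 223 FPKM in control siRNA and 199, 197 and 227 with siCHD4, the value of 130 being that of the shallow library. The log2 difference between control siRNA plus decitabine and control siRNA was -0.49 with that library (limma adjusted p = 0.0647) and -0.21 without it (adjusted p = 0.214), and it was called, at -0.66, without replicate 1 of control siRNA plus decitabine (adjusted p = 0.0175). GENCODE lists 10 pseudogenes named after CBX3 and 5 after CBX1, and how fragments shared with such copies were counted is not given in the sources used here, so both levels are uncertain to that extent. CBX3 also overlaps HNRNPA2B1 on the other strand.

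CBX1, which encodes HP1 beta, was 68.9, 71.3 and 65.1 FPKM in control siRNA and 78.5, 82.1 and 80.0 with control siRNA plus siDNMT1. The siDNMT1 libraries lay wholly above, by a log2 difference of 0.23 that was not called (95% interval -0.02 to 0.47, limma adjusted p = 0.243). With both siRNAs CBX1 was 74.5, 88.1 and 82.3 FPKM, and the siCHD4 difference in that background was 0.02 (95% interval -0.22 to 0.27).

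The makeup of HP1 transcripts differed accordingly. CBX5 was 4.87, 5.49 and 6.61% of the summed FPKM of the 3 HP1 genes in control siRNA and 12.5, 9.11 and 11.5% with siCHD4 plus siDNMT1. CBX3 was 76.7, 76.2 and 73.0% and 61.4, 63.2 and 61.0%. The shares of both genes were separate between the 2 groups. CBX1 had a mean share of 19.1% in control siRNA and 27.1% in the double depletion. The sum itself was 319 to 389 FPKM over the 3 control siRNA libraries and 285 to 318 over those of the double depletion, groups that were separate by a narrow margin. These shares are built from the values above and were not tested again.

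**Figure D2:**
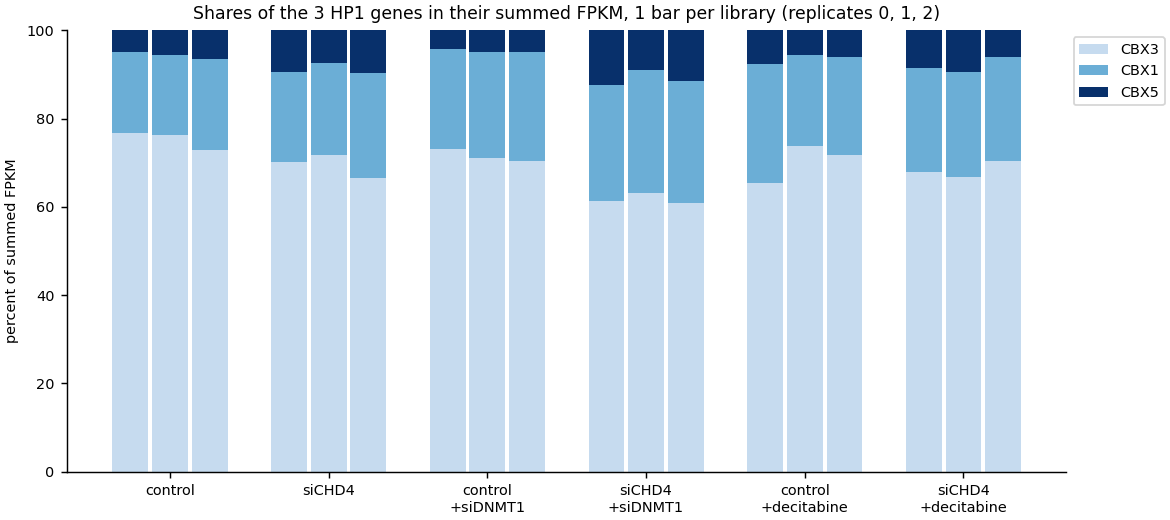
Percent of the summed FPKM of CBX3, CBX1 and CBX5 (y axis) taken by each gene, 1 stacked bar per library in the 6 groups (x axis). The CBX5 share is 9.11 to 12.5% in the 3 bars of siCHD4 plus siDNMT1 and 4.87 to 6.61% in those of control siRNA.

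The ratio of CBX5, a reader, to SUV39H1, a writer, was 1.71, 2.28 and 2.26 in control siRNA, 2.14, 2.51 and 2.20 with control siRNA plus siDNMT1 and 2.02, 2.46 and 2.28 with control siRNA plus decitabine. It was 7.96, 8.95 and 8.34 with siCHD4 plus siDNMT1 and 4.69, 4.43 and 3.11 with siCHD4 plus decitabine. With siCHD4 alone it was 3.26, 2.22 and 5.20, from within the control range to above it. The 3 control siRNA groups lay between 1.71 and 2.51, and both siCHD4 combinations above that. The ratio joins the 2 members that varied most, was chosen with their values known, and adds no evidence to them.

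Counted over the 10 genes, siCHD4 alone called none by limma, in a comparison in which 19.3% of tested genes were called, and 1 of the 10 (CBX5) had an unadjusted p under 0.05. Its libraries were separate from the controls for 1 member (CBX3), against 33.5% of tested genes. In the siDNMT1 background siCHD4 called 3 members (CBX5 higher, SUV39H1 and SETDB1 lower) against 49.4% of tested genes, and the libraries of 7 members were separate against 70.1%. In the decitabine background it called none by limma against 4.57%, with 3 members (SETDB1, SUV39H1 and CBX5) under an unadjusted p of 0.05, and 5 members were separate against 27.1%. CHD4 RNA itself fell less in that background.

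The 4 comparisons with control siRNA alone share its 3 libraries. siDNMT1 called 1 member, and 4 were separate against 41.6% of tested genes. Decitabine called none by limma against 18.2%, with 5 members under an unadjusted p of 0.05 and 3 separate against 34.5%. siCHD4 plus siDNMT1 called 6 of 10 against 59.1%, a count of 3 or 4 with any 1 of its 6 libraries left out, and 8 were separate against 70.5%. siCHD4 plus decitabine called 3 of 10 against 34.9%, a count of 1 or 2 with 1 library left out, and 5 were separate against 55.9%. None of the 3 differences between siCHD4 effects called a member by limma. Of all tested genes 4.12% were called for the effect with siDNMT1 minus that alone, 1.16% for that with decitabine minus that alone and 8.4% for that with siDNMT1 minus that with decitabine. In the same order 2, 1 and 3 members had an unadjusted p under 0.05. The share of all tested genes at that unadjusted level was not taken. Member counts at that level, here and above, therefore cannot be compared with the shares called. With 1 library left out, the 528 tested genes called in the first of these differences became 320 to 2557 (2557 without siCHD4 replicate 2), the 148 of the second 71 to 303 and the 1076 of the third 308 to 1475, so the shares called depend on single libraries. In no comparison did the members' share of calls stand clearly above that of all tested genes.

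**Figure D3:**
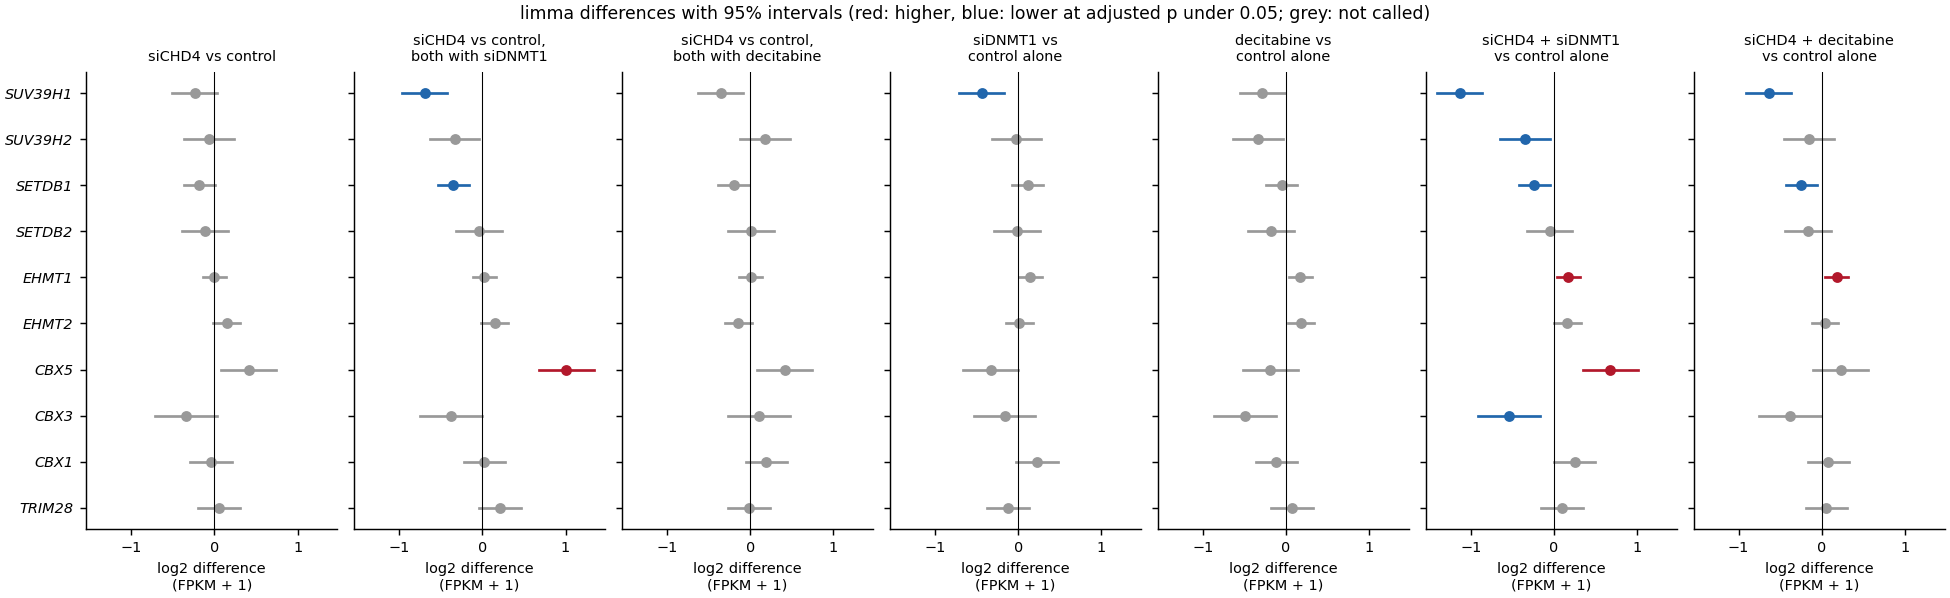
limma log2 differences of FPKM + 1 (x axis) with 95% intervals for the 10 genes (y axis) in 7 comparisons (panels), red where called higher, blue where called lower and grey where not called. SUV39H1 is left of zero in all 7 panels and CBX5 is furthest right, at 1.01, for siCHD4 in the siDNMT1 background.

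KDM4B and PHF8, which remove H3K9 methylation, rose with siCHD4 alone and with siDNMT1. Of 10 tested demethylase genes, siCHD4 alone called 2 higher and none lower, against 19.3% of all tested genes called, and in the siDNMT1 background 5 higher and 2 lower, against 49.4%, with list medians of 0.18 and 0.28 log2 units where all tested genes had medians of 0.00 and -0.01. KDM4B, a trimethyl-H3K9 demethylase, rose by 0.63 ± 0.14 with siCHD4 alone (limma adjusted p = 0.00576) and by 1.03 ± 0.14 in the siDNMT1 background (adjusted p = 3.92e-05). PHF8, which removes dimethyl H3K9, rose by 0.49 (adjusted p = 0.0259) and 0.92 (adjusted p = 0.000136). KDM4C (-0.38, adjusted p = 0.00717) and KDM1A (LSD1; -0.21, adjusted p = 0.0234) were lower in the siDNMT1 background. With decitabine siCHD4 called none of the 10, against 4.57%. Against control siRNA, siCHD4 plus siDNMT1 called 5 of the 10 higher and 2 lower, where 59.1% of all tested genes were called. Decitabine called 3 higher and 0 lower, against 18.2%, and siDNMT1 1 higher and 0 lower, against 11.3%. KDM4B was higher with decitabine (0.64, limma adjusted p = 0.00507) and with siCHD4 plus siDNMT1 (1.45, adjusted p = 5.97e-07). KDM4A, another trimethyl demethylase, was higher with siDNMT1 (0.42, limma adjusted p = 0.0181) and decitabine (0.47, adjusted p = 0.00655).

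Among 10 tested partners and relatives of the methyltransferases, siCHD4 called 2 higher and none lower both alone and with siDNMT1, and none with decitabine. That share is near the 19.3% of all tested genes called alone and under the 49.4% called with siDNMT1. With decitabine 4.57% of all tested genes were called. ATF7IP, the cofactor that protects SETDB1 in the nucleus, was higher by 0.56 (limma adjusted p = 0.0237) and 0.67 (adjusted p = 0.00319). SETDB1 itself was not called with siCHD4 alone and was called lower with siDNMT1 (-0.35, limma adjusted p = 0.00422). CDYL, a chromodomain protein that bridges to G9a, was higher with siCHD4 alone (0.31, adjusted p = 0.0483), and PRDM2, a methyltransferase of the PRDM family, with siCHD4 in the siDNMT1 background (0.73, adjusted p = 0.00398). The HUSH complex and its partner MORC2, which act with SETDB1 on retroelements and integrated genes, split: of 4 genes MORC2 was called higher with siCHD4 in all 3 backgrounds (0.41, 0.83 and 0.44, limma adjusted p = 0.0143, 2.40e-05 and 0.0258), and periphilin (PPHLN1) lower in the first pair (-0.34 and -0.51, adjusted p = 0.00698 and 8.86e-05).

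The 21 tested partners of HP1 and TRIM28 went both ways. Of them siCHD4 alone called 1 higher and 1 lower, where 19.3% of all tested genes were called. These were LRIF1, an HP1-binding protein, higher (0.52, limma adjusted p = 0.0237) and LBR, the inner nuclear membrane receptor that binds HP1, lower (-0.41, adjusted p = 0.00940). In the siDNMT1 background 6 were higher and 3 lower, where 49.4% of all tested genes were called, among them BAHD1, a heterochromatin scaffold (0.79, adjusted p = 0.000261), the methyl-CpG binder MBD1 (0.41, adjusted p = 0.000233), LBR (-0.60, adjusted p = 0.000212) and the chromatin assembly subunit CHAF1A, which binds HP1 at replication forks (-0.44, adjusted p = 0.00171). With decitabine siCHD4 called none of the 21, where 4.57% of all tested genes were called. The medians were 0.00, -0.02 and 0.13, against 0.00, -0.01 and 0.01 over all tested genes.

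**Figure D4:**
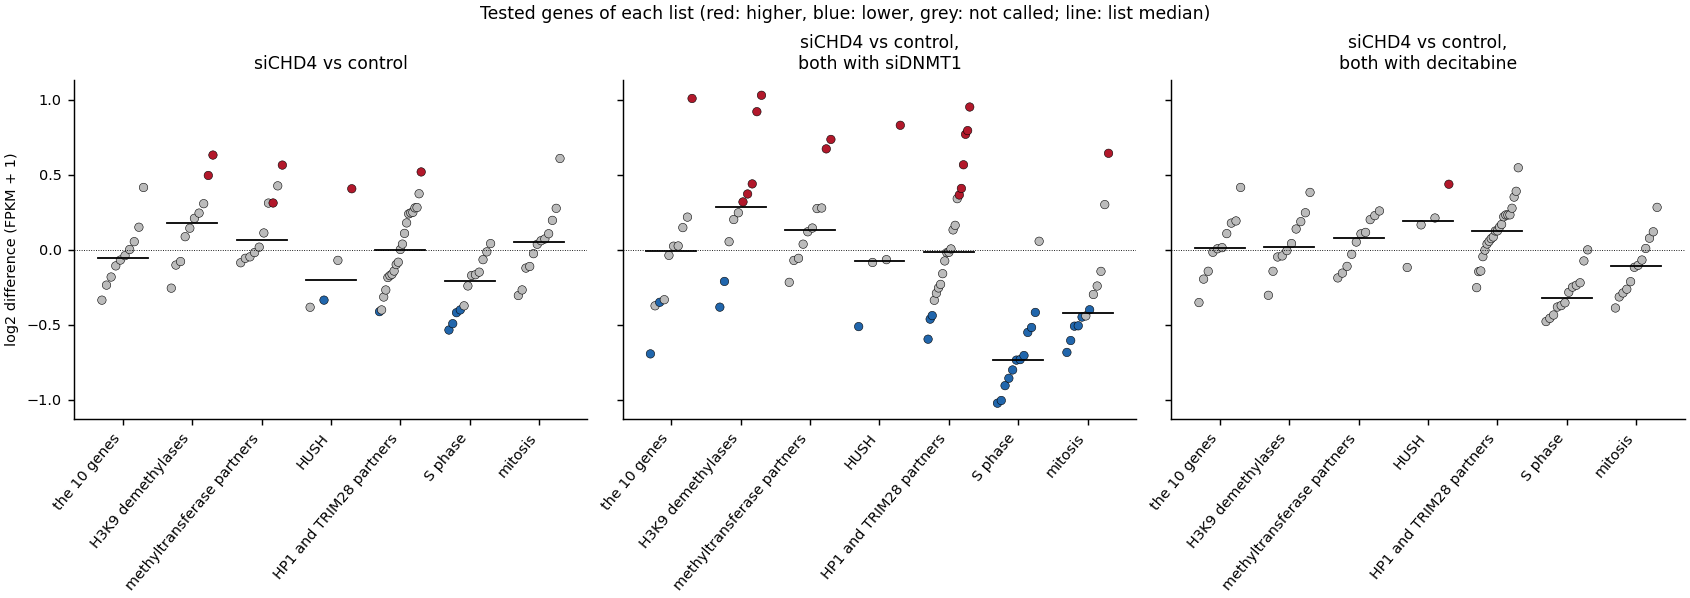
limma log2 differences of FPKM + 1 (y axis) of every tested gene in the 10-gene set and in 6 gene lists (x axis) for siCHD4 against control siRNA in the 3 backgrounds (panels), red where called higher, blue where called lower, grey where not called, with the list median as a line. The S phase genes sit lowest in the middle panel, with a median of -0.73.

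S phase genes moved beside these results. Of 12 S phase genes siCHD4 called 4 lower alone, 11 lower with siDNMT1 and none with decitabine. Of all tested genes 19.3%, 49.4% and 4.57% were called in either direction. The medians of the S phase genes were -0.21, -0.73 and -0.32 log2 units. RRM1, a subunit of ribonucleotide reductase, fell by 0.42 alone (limma adjusted p = 0.00486) and by 1.01 with siDNMT1 (adjusted p = 8.15e-07), and PCNA, the replication clamp, by 0.91 with siDNMT1 (adjusted p = 2.83e-05). Of 12 mitotic genes the numbers were 0, 6 and 0 lower, and MKI67 was higher with siDNMT1 (0.64, adjusted p = 0.0237). With siDNMT1 the mitotic calls were thus 6 lower and 1 higher, where 49.4% of all tested genes were called in either direction. The medians of the mitotic genes were 0.05, -0.42 and -0.11 log2 units, against 0.00, -0.01 and 0.01 over all tested genes. SUV39H1 was lowest in the libraries with siCHD4 plus siDNMT1. The part of cell cycle state in its level was not tested, nor that of the lower epithelial and higher fibroblast and blood marker sums. Fewer cells in a phase and less RNA per cell cannot be told apart in bulk RNA.

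The tested genes with profiles most like those of the 3 leading members are given as a description of these 18 libraries, which share their 6 groups. For SUV39H1 they were SHMT2 (mitochondrial serine hydroxymethyltransferase, Pearson r = 0.955), UCK2 (uridine-cytidine kinase, 0.954) and SSRP1 (a subunit of the histone chaperone FACT, 0.945). SHMT2 went from a mean of 138 FPKM in control siRNA to 54.4 with siCHD4 plus siDNMT1, and SSRP1 from 172 to 110. For CBX5 they were the tight junction gene TJP1 (0.955), the phosphatase PHLPP1 (0.954) and the transcription factor TEAD1 (0.954), the last with means of 8.42 FPKM in control siRNA and 15.8 in the double depletion. For SETDB1 the values were lower, at 0.893 for C14orf142, 0.884 for the splicing factor CRNKL1 and 0.882 for HIATL1.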

How the data were processed

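The authors deposited FPKM values in a single table, with a column for each library. The submitters' processing notes name TopHat2 2.0.9, Cuffdiff 2.1.1 and the build hg19. Not given in the sources used here are the annotation, the filters, the use of strand and any scaling of libraries. Read totals were not used here, so the depth is unknown beyond the worth of 1 fragment, and no counting intervals are given. Of 23599 entries, 28 (0.119%) show a date where the symbol should be and were dropped. The 18 columns were matched to libraries by title.

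The fit used log2(FPKM + 1), on which changes of low genes look smaller than they are, and genes at 1 FPKM or more in at least 3 libraries were kept, 12809 in all, including the 10 members. limma 3.58.1 in R 4.3.3 fitted 6 group means over 18 libraries (12 residual degrees of freedom, trended empirical Bayes). The p-values are two-sided, with Benjamini-Hochberg adjustment across the tested genes, and a gene is called at an adjusted p under 0.05. Intervals are 95% intervals of the fit, not adjusted. The script was tested on simulated data. Replicate numbers were not taken as pairs: residuals of same-numbered libraries correlated between -0.31 and 0.126.

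The members and gene lists were chosen with earlier results of these data known, and the lists were written from general knowledge. Named beside the members are CHD4 and DNMT1, at most 2 called genes of smallest p in each direction per list and comparison, the 3 genes most alike over the 18 libraries for the 3 members of largest F, and head-to-head partners within 1000 bases. Of the tested partners, C2, which starts 87 bases from EHMT2, is not described. Positions are from GENCODE on GRCh37. RefSeq promoter sequences were found for 9 of the 10 genes, not for TRIM28, and placed on GRCh37 by exact match.

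The alternatives tried were leaving out each library, quantile normalization, median ratio scaling, a filter at 5 FPKM or none, a pseudocount of 0.1, library weights, a replicate block, and fitting the compared groups alone. Leaving out replicates 2 of control siRNA and siCHD4 together was chosen after seeing the data.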

Additional observations from a re-analysis of the deposited data

How the results depend on the processing

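The calls of SUV39H1, CBX5 and SETDB1 for siCHD4 in the siDNMT1 background held in 14 of 14 alternatives, and those of SUV39H1 (15 of 15) and CBX5 (15 of 15) for siCHD4 plus siDNMT1 and of SUV39H1 (15 of 15) for siCHD4 plus decitabine held against control siRNA. No sign changed among the 42 results that were called, had separate groups or had an unadjusted p under 0.05. That choice itself favours stable signs. Of the other 58 results, 34 changed sign in some alternative, and none of those changed signs passed at an adjusted p under 0.05. The number of members called for siCHD4 alone, 0, was 4 with library weights and 0 to 1 with 1 library left out. In the siDNMT1 background the 3 calls became 6 after quantile normalization, 7 with library weights, 6 in a fit on the compared groups only and 3 to 4 with 1 library left out. In the decitabine background 0 became 3 with library weights. For siDNMT1 against control siRNA the 1 call became 0 without a filter, after quantile normalization, with the replicate block and with any 1 library left out (0 to 0), 6 with library weights and 2 with the compared groups only. For decitabine 0 became 3 with library weights, 1 without replicates 2 of control siRNA and siCHD4, and 0 to 1 with 1 library left out. The 6 calls of siCHD4 plus siDNMT1 against control siRNA were 3 to 4 with 1 library left out, 8 after quantile normalization (without SETDB1 and CBX3), 6 after median ratio scaling (EHMT2 and CBX1 in place of SETDB1 and SUV39H2), 8 with library weights and 7 with the compared groups only. The 3 of siCHD4 plus decitabine became 5 with library weights and 1 to 2 with 1 library left out. For the siCHD4 effect with siDNMT1 minus that alone, 0 became 5 with library weights, 1 without replicates 2 and 0 to 2 with 1 library left out, and for that with siDNMT1 minus that with decitabine it became 1 after quantile normalization, 3 with library weights and 1 with the compared groups only. Library weights also raised the calls over all genes, to 9651 for siCHD4 plus siDNMT1 against control siRNA. The cause of these shifts was not tested. The replicate block left 3 calls in the siDNMT1 background, 4 for siCHD4 plus siDNMT1 and 2 for siCHD4 plus decitabine against control siRNA, and apart from the call lost for siDNMT1 changed no other count. The libraries showed no pairing by number.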
